A study of Xenopus laevis with 96 samples.

Results

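The comparison described here is between Xenopus laevis embryos treated with 4-diethylaminobenzaldehyde (DEAB) and control embryos of the same clutches, sampled when the treatment ended. It holds 12 of the 96 RNA-seq libraries of the series, namely the 6 DEAB and the 6 control libraries collected at 0 h after washing, chosen by these labels alone. The series followed embryos for 4.5 h after a transient change of retinoic acid (RA) signaling, and asked how the transcriptome responds to the change and returns from it.

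DEAB embryos were wild type and were kept in 50 µM DEAB for 2 h, ending at early gastrula (stage 10.25), when they were washed and collected. Control embryos were wild type siblings of the same stage, labelled only as controls. DEAB stocks were made in DMSO, and whether controls received the solvent is not given, so the agent and its solvent cannot be told apart. Each library came from a pool of 5 to 10 whole embryos of 1 female, and the 6 females (clutches A to F) each gave a DEAB and a control library. Libraries of the same clutches treated for 2 h with 10 nM RA or 0.5% ethanol and collected at 0 h, and DEAB and control libraries from 1.5, 3 and 4.5 h after the wash, are used below only as values beside this comparison. The labelled stage of the later libraries differed between clutches. Clutch A was labelled as a later stage than the others at 1.5 h, and clutches B and C as an earlier stage at 3 and 4.5 h. Below, clutches are grouped by hours after the wash and not by stage. The clutches had been selected for sequencing by qPCR of RA target genes, cyp26a1.L and hoxb4.S among them, with a fall after DEAB as a condition. A rise after RA was a condition too. The direction of cyp26a1.L below is therefore not independent evidence. The same choice of clutches bears on the direction of other RA targets, such as cyp26a1.S, dhrs3 and hoxd1.

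RA is made from vitamin A in a pair of oxidation steps. Retinol dehydrogenases such as RDH10 make retinaldehyde, and retinaldehyde dehydrogenases such as ALDH1A2 (RALDH2) make RA. DEAB inhibits the dehydrogenases of the last step. DHRS3 acts against the pathway by reducing retinaldehyde back to retinol, and CYP26 enzymes oxidize RA for removal. RA binds nuclear receptors (RAR with RXR) on target genes, among which the 3′ hox genes, cyp26a1 and dhrs3 are well known, so that the enzymes form a negative feedback. In the gastrula the pathway is known for its part in patterning the hindbrain and trunk. The allotetraploid X. laevis genome carries many genes as a pair of homeologs, marked .L and .S.

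Total counts per library ranged between 10829562 and 15002075 with DEAB and between 11239196 and 15612143 in controls. Clutch was kept as a block in the test, since both libraries of a clutch come from 1 female. Early embryonic regional markers were present in every library: the 16 homeologs of gsc, chrd, t, wnt8a, myod1, vegt, sox17a, gata4, sox3 and foxi1 that passed the count filter summed to 2188 to 3252 CPM with DEAB and to 1917 to 3604 CPM in controls. CPM here are read counts scaled to a common library total after TMM normalization. None of these 16 passed the test below, and none was at 0 in any library.

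With DEAB, both homeologs of the RA target hoxd1, of the RA-degrading enzyme gene cyp26a1 and of the retinaldehyde reductase gene dhrs3 passed the test as lower than in controls. So did 6 of 29 posterior and hindbrain transcription factor genes and 17 of 110 ribosomal protein genes. The largest changes of named genes that passed were downward. Of the 5 RA pathway lists, that of receptors and coregulators held 1 gene of 19 that passed as higher (5.26%, against 1.16% of all genes). The other lists, which are shorter, held none. Of 19376 genes tested, 460 passed an adjusted p of 0.05 (edgeR's quasi-likelihood test, Benjamini-Hochberg adjustment), which is 2.37% of the genes. Of these, 225 (1.16%) were higher and 235 (1.21%) were lower with DEAB. Of the genes called, 139 were higher and 126 lower in all 6 clutches, where 7.98% of all genes tested had the same direction in every clutch (3.84% lower). Most changes were small: the median log2 fold change was 0.26 for the genes called higher and −0.29 for those called lower, and the median over all genes tested was 0.00. Only 15 called genes were at least 2-fold lower and 3 at least 2-fold higher. In whole embryos, fewer cells of a type and less RNA per cell cannot be told apart.

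The count of calls depended on single clutches and on the libraries in the fit. Adjusted p values lay close to the threshold (smallest 0.0247), while 22.3% of all genes had an unadjusted p under 0.05. Without clutch C, 2563 genes were called (13.2%, 5.91% higher and 7.24% lower), without clutch B 688, and without clutch A 2. Without clutch D, E or F no gene was called, with 3214, 2738 and 2743 genes at an unadjusted p under 0.05. In a fit of the 12 DEAB and control libraries alone no gene passed either (smallest adjusted p 0.082, 3594 genes at an unadjusted p under 0.05), whereas DESeq2 called 1020 genes. The fit without clutch as a block called 0 genes, with 82 at an unadjusted p under 0.05. Calls named below are those of the fit over the 18 DEAB, RA and control libraries of 0 h.

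**Figure D1:**
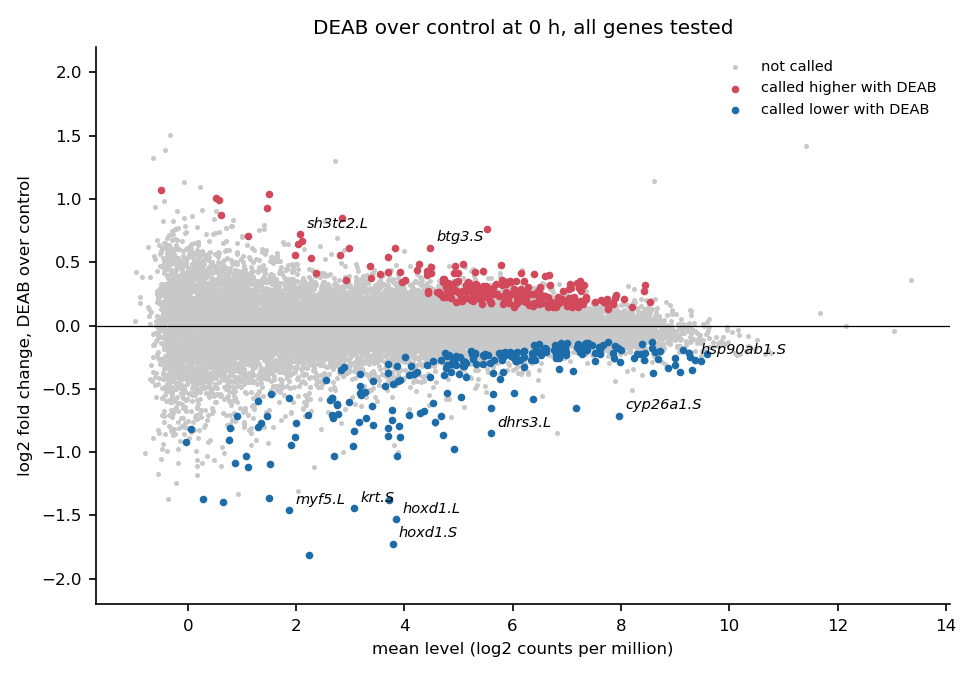
Log2 fold change of DEAB over control at 0 h (y axis) against the mean level in log2 CPM (x axis) for the 19376 genes tested. Red points are the 225 genes called higher with DEAB, blue points the 235 called lower, and grey points the rest; the called changes of the largest size were downward, both hoxd1 homeologs among them.

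Of the 3′ hox genes, the classic RA targets, both homeologs of hoxd1 fell (background 1.21% of genes lower). hoxd1.S had 0.724, 2.66 and 13.4 CPM (lowest, median and highest) with DEAB and 0.435, 16.03 and 24.4 CPM in controls, and fell by 1.72 on the log2 scale (SE 0.25, n = 6 clutches, edgeR adjusted p = 0.0247). hoxd1.L had 1.01, 3.66 and 14.3 CPM with DEAB and 0.942, 17.3 and 24.2 CPM in controls, and fell by 1.53 (SE 0.24, adjusted p = 0.0247). Both hoxd1 homeologs were lower in clutches A, B, D, E and F and not in clutch C, where hoxd1.S was 0.58 higher and hoxd1.L 0.09 higher on the log2 scale. Controls of clutches B and C had the lowest hoxd1.L levels, 2.57 and 0.942 CPM, while the other 4 controls had 13.6 CPM or more. In clutch C, with 0.942 CPM of hoxd1.L and 0.435 CPM of hoxd1.S in the control, few reads set the differences. Both homeologs were still called without clutch A (adjusted p = 0.022 for hoxd1.L and 0.0057 for hoxd1.S, edgeR), and these were the 2 genes called there.

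hoxa2.S, a gene of the second rhombomere and the second branchial arch, stood at −1.09 (SE 0.38, adjusted p = 0.10) and had at most 0.805 CPM with DEAB and 1.32 CPM in controls. The count filter did not keep it in the 12 DEAB and control libraries alone. The hoxb1 and hoxb4 homeologs did not pass the count filter at this stage, and none of the 12 named homeologs of hox groups 5 to 13 did, so their change was not detectable at this depth.

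**Figure D2:**
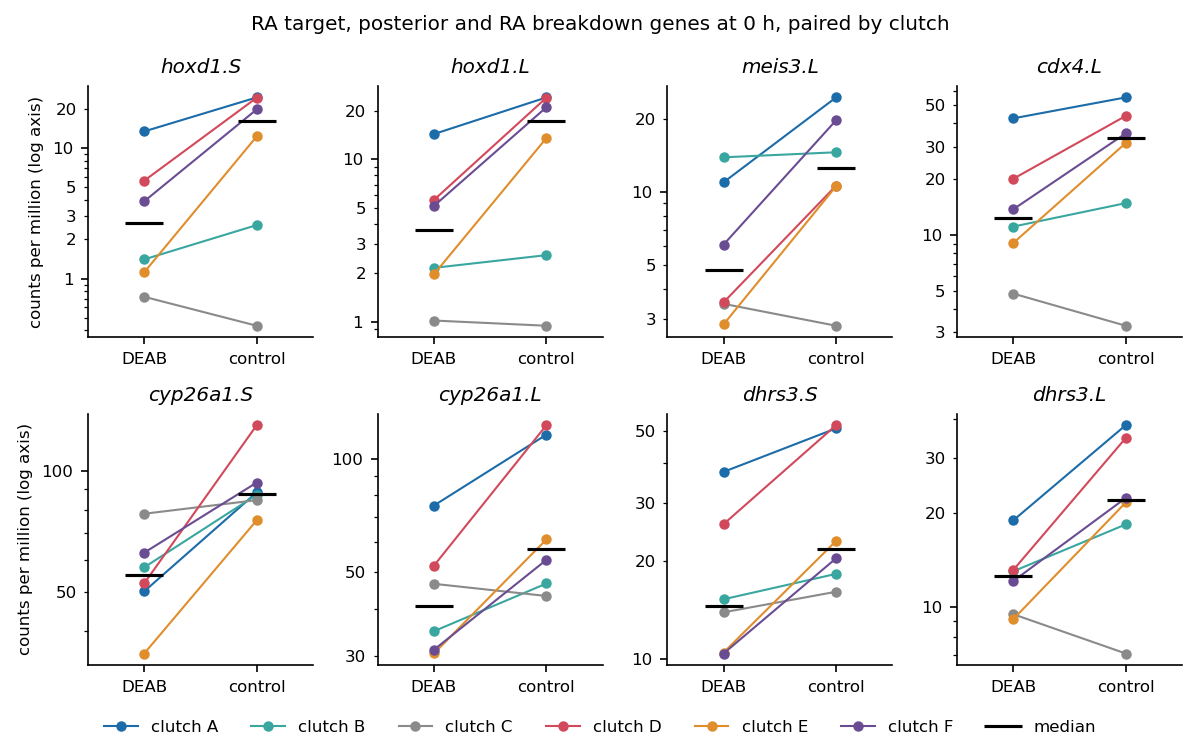
CPM (log axis) of meis3.L, cdx4.L and of hoxd1, cyp26a1 and dhrs3 homeologs at 0 h in DEAB (left) and control (right) embryos. Lines join the libraries of 1 clutch and black bars are group medians; lines rise to the right in clutches A, B, D, E and F in every panel, and in clutch C in the cyp26a1.S and dhrs3.S panels.

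Among enzymes that remove RA or retinaldehyde, both homeologs of cyp26a1 and of dhrs3 fell, 4 of the 9 tested members of the list (44.4%, against 1.21% of all genes). cyp26a1.S had 35.1, 55.0 and 78.2 CPM with DEAB and 75.4, 87.9 and 130 CPM in controls. It fell by 0.71 on the log2 scale (SE 0.16, edgeR adjusted p = 0.039), and was lower in 6 of 6 clutches (exact 2-sided sign-flip p = 0.03125, the smallest that 6 pairs can give). The clutches had been chosen by qPCR with a fall of RA targets after DEAB as a condition. The sign-flip p is therefore a description and not independent evidence of direction, and the choice bears on the share of this list called too. cyp26a1.L had 30.4, 40.7 and 75.1 CPM with DEAB and 43.2, 57.5 and 122.7 CPM in controls, and fell by 0.65 (SE 0.16, adjusted p = 0.044). It was lower in 5 of 6 clutches, by 0.42 to 1.24, and 0.11 higher in clutch C.

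dhrs3.L had 9.15, 12.6 and 18.98 CPM with DEAB and 7.10, 22.0 and 38.3 CPM in controls. It fell by 0.85 (SE 0.16, adjusted p = 0.027), lower in clutches A, B, D, E and F by 0.50 to 1.40 and 0.41 higher in clutch C. dhrs3.S had 10.4, 14.6 and 37.5 CPM with DEAB and 16.1, 21.7 and 52.1 CPM in controls, and fell by 0.65 (SE 0.14, adjusted p = 0.039), lower in 6 of 6 clutches. The dhrs3 fall was thus largest in clutches D and E for the .L copy and in E for the .S copy. The other tested members of the list did not pass the test. dhrs4.L stood at −0.28 (SE 0.09, adjusted p = 0.080), and the RA-degrading cyp26c1 homeologs, at under 1 CPM in the median of either group, at 0.07 and 0.04 (.L and .S, SE 0.33 each).

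None of the 7 tested RA synthesis genes passed the test (2.37% of all genes did), with a median log2 fold change of −0.13. This list's median was −0.16 with RA and −0.06 with ethanol over the same controls. aldh1a2.L, which encodes the main enzyme DEAB inhibits in the embryo, had 96.8, 124 and 195 CPM with DEAB and 96.1, 136 and 218 CPM in controls, a log2 fold change of −0.13 (SE 0.07, adjusted p = 0.30). aldh1a2.S stood at −0.18 (SE 0.08, adjusted p = 0.19). Both were lower in 4 of 6 clutches and higher in clutches B and C. rdh10.L had a log2 fold change of −0.25 (SE 0.10, adjusted p = 0.14) and rdh10.S of −0.13 (SE 0.05, adjusted p = 0.13), each lower in 5 of 6 clutches. Without clutch C, 4 of the 7 passed as lower and 1 as higher, where 7.24% of all genes passed as lower and 5.91% as higher.

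None of the 5 retinoid binding and uptake genes passed the test (2.37% of all genes did). Among them were crabp2 and stra6, whose proteins bind or take up retinoids. Of 19 RA receptor and coregulator genes, 1 rose (5.26%, against 1.16% of all genes). This gene, ncoa3.S, a nuclear receptor coactivator, had 179, 224 and 241 CPM with DEAB and 168, 190 and 213 CPM in controls. It rose by 0.18 (SE 0.05, edgeR adjusted p = 0.045). It was higher in 5 of 6 clutches. The list's median was 0.13, and 8 of 19 had an unadjusted p under 0.05 and were higher, against 11.2% of all genes. With RA over the same controls this median was 0.10, and with ethanol 0.11. Closest below the threshold were the coactivator crebbp.S at 0.15 (adjusted p = 0.054), the RXR gene rxrb.S at −0.23 (adjusted p = 0.059) and the corepressor nrip1.S at 0.20 (adjusted p = 0.063).

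The RA libraries of the same clutches and time give the opposite treatment. RA and DEAB were compared with the same 6 control libraries (104 genes called for RA, 0.537%, with 0.31% higher), so their values are set side by side and were not tested for likeness. cyp26a1.S stood at −0.71 with DEAB and at 2.67 with RA, cyp26a1.L at −0.65 and 2.09, dhrs3.L at −0.85 and 2.21, and dhrs3.S at −0.65 and 1.73, all log2 fold changes over control. For the hoxd1 homeologs the RA values were smaller than the DEAB values in size, 0.65 for .L and 0.66 for .S with adjusted p of 0.10 and 0.11. The direct test of DEAB against RA called 90 genes (0.464%), 5 higher (0.0258%) and 85 lower (0.439%) with DEAB. The 5 were ficd.S, rap2b.L, LOC503674 and a pair of genes without a symbol. All of these 6 homeologs were among the 85, with log2 differences between −3.38 for cyp26a1.S and −2.18 for hoxd1.L (adjusted p of 5.5e-10 and 4.0e-05). The choice of clutches by qPCR, with a fall after DEAB and a rise after RA as conditions, bears on this direction too. hoxa2.S stood at −2.66 for DEAB against RA. It passed the count filter only with the RA libraries in the fit, where it was higher, so this value is a description and no test of it is given.

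Ethanol shares these controls too. The fit of the 24 libraries of 0 h called 1731 genes for ethanol (8.73%, with 2.97% higher and 5.76% lower). The same fit called 1205 genes for DEAB, which is the count to set beside 1731. The 460 genes for DEAB and 104 for RA given above are from the main fit, over fewer libraries. In the fit of the 24 libraries of 0 h, hoxd1.S stood at −0.82 with ethanol (adjusted p = 0.031), hoxd1.L at −0.71 (adjusted p = 0.065) and dhrs3.L at −0.60 (adjusted p = 0.015) over control. cyp26a1.L and cyp26a1.S stood at −0.35 and −0.25 and did not pass. Between the agents directly, 334 genes (1.68%, 1.1% lower with DEAB) were called. For dhrs3.L the difference between DEAB and ethanol was −0.25 (adjusted p = 0.46) and for hoxd1.S −0.91 (adjusted p = 0.088). These agents differ in kind and dose, and the values are given side by side.

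The 225 genes called higher with DEAB had a median log2 fold change of 0.26 with DEAB, 0.19 with RA and 0.16 with ethanol. The 235 called lower had −0.29 with DEAB, −0.19 with RA and −0.16 with ethanol. They were selected on the DEAB values and the controls are shared, so these medians are a description.

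Posteriorising and hindbrain transcription factors were the next list. Of 29 tested, 6 fell and none rose (20.7% lower against 1.21% of all genes), 26 had a log2 fold change below 0, and the median was −0.38, against −0.14 with RA and −0.18 with ethanol over the same controls. meis3.L, a homeobox gene of the hindbrain, had 2.86, 4.81 and 13.9 CPM with DEAB and 2.83, 12.6 and 24.6 CPM in controls, and fell by 1.03 (SE 0.24, adjusted p = 0.043). sp5.L, a Wnt target gene, fell by 0.95 (SE 0.24, adjusted p = 0.045). cdx4.L, a caudal gene of the posterior embryo, had 4.85, 12.5 and 42.5 CPM with DEAB and 3.26, 33.3 and 55.1 CPM in controls, and fell by 0.87 (SE 0.20, adjusted p = 0.039). Its relative cdx2.S fell by 0.81 (SE 0.19, adjusted p = 0.041). The other members that fell were both homeologs of irx2, an Iroquois homeobox gene, at −0.78 for irx2.L and −0.76 for irx2.S. meis3.L, sp5.L, cdx4.L and cdx2.S were lower in 4 or 5 of 6 clutches, and each was higher in clutch C, by 0.29 to 0.79. The list's median was 0.30 in clutch C, −0.07 in clutch B and between −0.67 and −0.32 in the other 4. Without clutch C, 16 of 29 passed as lower and 1 as higher, where 7.24% of all genes passed as lower and 5.91% as higher.

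Of 44 mesoderm genes, 4 fell (9.09%, against 1.21% of all genes) and 1 rose (2.27%, against 1.16%), with a median of −0.07. myf5.L, a myogenic regulator, had 0.247, 0.921 and 6.504 CPM with DEAB and 0.145, 4.41 and 11.3 CPM in controls, and fell by 1.46 (SE 0.26, adjusted p = 0.025). myf5.S fell by 1.36 (SE 0.32, adjusted p = 0.041), with 1 to 70 reads with DEAB and 1 to 120 in controls. Control levels of both myf5 homeologs were highest in clutches A and D and lowest in clutches B and C, and the fall was seen in 5 of 6 clutches for .L and in 4 for .S. foxc1.S, a forkhead gene of the paraxial mesoderm, fell by 0.88 (SE 0.23, adjusted p = 0.049), and ventx3.2.S, a ventral homeobox gene, fell by 0.41 (SE 0.09, adjusted p = 0.040). The gene that rose was eomes.S, a T-box gene of the early mesoderm, by 0.21 (SE 0.05, adjusted p = 0.044).

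Of 53 ectoderm and neural genes, 4 fell (7.55%, against 1.21% of all genes) and none rose. In this list 47 had a log2 fold change below 0 (median −0.16), as had 9746 of all 19376 genes. All 4 were keratin genes. krt.S had 0.724, 2.84 and 14.9 CPM with DEAB and 0.724, 11.2 and 32.5 CPM in controls, and fell by 1.44 (SE 0.29, adjusted p = 0.034). xk81a1.L had 6.62, 16.5 and 32.6 CPM with DEAB and 15.7, 35.2 and 53.1 CPM in controls, fell by 0.98 (SE 0.20, adjusted p = 0.034) and was lower in 6 of 6 clutches. krt8.S and krt18.S fell by 0.24 and 0.22 (SE 0.04 and 0.05). With ethanol xk81a1.L stood at 0.03 over control and with RA at −0.01, and DEAB was lower than ethanol by 1.01 and lower than RA by 0.97. The gene was named for its fall in the same DEAB libraries, so these differences are in part fixed and are a description. Its values near 0 are not those of the 235 genes called lower as a set, whose medians were −0.19 with RA and −0.16 with ethanol.

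None of 30 organizer and head genes and none of 18 endoderm genes passed the test, where 2.37% of all genes did. At an unadjusted p under 0.05, 6 organizer genes were lower (20%) and 0 higher, and 3 endoderm genes were lower (16.7%) and 2 higher. Over all genes 11.2% were lower and 11.2% higher. Without clutch B, 2 organizer and 6 endoderm genes passed as lower, where 351 of 19342 genes did. Without clutch C, 3 of each list did, where 7.24% of all genes did. The organizer genes with the smallest p were foxa2.L, a floor plate and organizer gene, at −0.71 (SE 0.27, adjusted p = 0.14) and lhx1.S at −0.23 (adjusted p = 0.11), and the endoderm gene with the smallest p was sebox.L at −0.51 (adjusted p = 0.079). The clutches disagreed on the endoderm list, whose median was 0.74 in clutch B, 0.10 in clutch C and between −0.46 and −0.18 in the other 4.

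Of 39 BMP, nodal and Wnt signaling genes, 3 fell (7.69%, against 1.21% of all genes) and 1 rose (2.56%, against 1.16%). Both homeologs of fzd10, a Wnt receptor, fell. fzd10.L had 8.03, 10.9 and 34.6 CPM with DEAB and 7.90, 23.2 and 49.9 CPM in controls, and fell by 0.76 (SE 0.15, adjusted p = 0.026), while fzd10.S fell by 0.84 (SE 0.21, adjusted p = 0.045). bmp4.S, a ventral BMP ligand, fell by 0.30 (SE 0.07, adjusted p = 0.044), and bmp2.S, another BMP ligand, rose by 0.32 (SE 0.08, adjusted p = 0.045). DEAB was lower than RA for fzd10.L by 0.76, where RA stood at 0.00 over control. This gene too was named for its fall in the same DEAB libraries, so the difference is a description. The 235 genes called lower had a median of −0.19 with RA.

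Of 110 cytosolic ribosomal protein genes tested, 17 fell (15.5%, against 1.21% of all genes) and none rose, 83 had an unadjusted p under 0.05 and were lower (75.5%, against 11.2% of all genes), and all 110 had log2 fold changes below 0, between −0.43 and −0.03. The median was −0.21. rpl29.S, of the large subunit, had 6.76, 8.0 and 14.1 CPM with DEAB and 7.75, 11.3 and 20.9 CPM in controls, and fell by 0.43 (SE 0.07, adjusted p = 0.025), lower in 6 of 6 clutches. rps6.L, of the small subunit, fell by 0.32 (SE 0.06, adjusted p = 0.025). By clutch the list's median was −0.09, −0.01 and −0.05 in A, B and C and −0.28, −0.36 and −0.33 in D, E and F. It was −0.12 with RA and −0.10 with ethanol over the same controls. With RLE scaling in place of TMM and in the other alternatives the median stayed between −0.24 and −0.12.

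Of 43 xenobiotic, oxidative and heat stress genes, 3 fell (6.98%, against 1.21% of all genes) and none rose, with a median of 0.00. hspa8.L, a constitutive HSP70 chaperone, had 339, 486 and 626 CPM with DEAB and 502, 609 and 813 CPM in controls, and fell by 0.37 (SE 0.06, adjusted p = 0.025), lower in 6 of 6 clutches. hsp90ab1.S, an HSP90 chaperone, fell by 0.27 (SE 0.05, adjusted p = 0.025), and cyp1a1.L, which encodes an aryl hydrocarbon metabolizing enzyme, by 0.77 (SE 0.20, adjusted p = 0.049). None of 20 other aldehyde and alcohol dehydrogenase genes passed the test (2.37% of all genes did). aldh1l1.L stood at −0.41 (adjusted p = 0.12) and aldh2.L at 0.23 (adjusted p = 0.094).

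Of 59 cell cycle and DNA replication genes, 1 rose (1.69%, near the 1.16% of all genes) and 2 fell (3.39%, against 1.21%). cdk1.L rose by 0.22 (SE 0.05, adjusted p = 0.044), while the B-type cyclin genes ccnb3.S and ccnb3.L fell by 0.54 (SE 0.14, adjusted p = 0.048) and 0.27 (SE 0.07, adjusted p = 0.045). Of 27 cholesterol and lipid synthesis genes, 1 rose (3.70%): scd.L, a fatty acid desaturase gene, rose by 0.26 (SE 0.06, adjusted p = 0.045). None of 25 glycolysis, 15 apoptosis and p53 target, and 59 nuclear-encoded respiratory chain genes passed the test (2.37% of all genes did). The respiratory chain median was −0.06, with 15 of 59 at an unadjusted p under 0.05 and lower (25.4%, against 11.2% of all genes). cox6b1.L, of the respiratory chain, stood at −0.42 (adjusted p = 0.054), and ccng2.L, of the p53 target list, at 0.32 (adjusted p = 0.050).

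**Figure D3:**
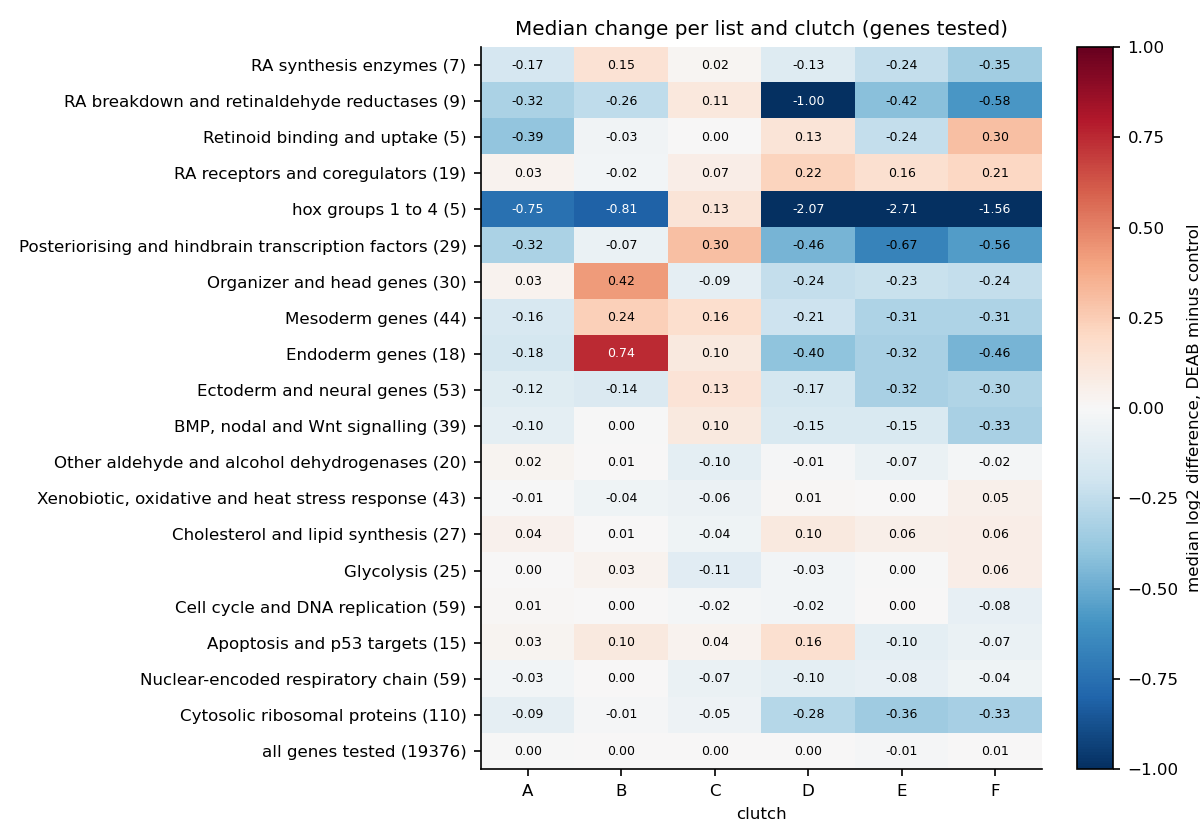
Median log2 difference of DEAB minus control within each clutch (columns A to F) for the tested members of each gene list (rows, number tested in brackets). Blue is lower and red higher with DEAB; the RA breakdown row is blue in clutches A, B, D, E and F and slightly red in clutch C, and the endoderm row is red in clutch B.

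Among genes called higher that were higher in all 6 clutches, the largest changes were modest. sh3tc2.L had 1.41, 2.36 and 17.6 CPM with DEAB and 0.325, 1.24 and 11.6 CPM in controls, and rose by 0.72 (SE 0.17, adjusted p = 0.043). angptl4.L, an inhibitor of lipoprotein lipase, rose by 0.66 (SE 0.17), btg3.S, an antiproliferative gene, by 0.62 (SE 0.13), and mycn.S, a Myc transcription factor, by 0.56 (SE 0.14). slc4a11.S, a membrane transporter, rose by 0.48 (SE 0.09), rab3a.L, a vesicle GTPase, by 0.47 (SE 0.11), and txnip.S, a thioredoxin-interacting protein, by 0.46 (SE 0.08). The other genes of this list, xlcgf26.1l.L, XB22065716.L and arfgap1l.S, rose by 0.56, 0.54 and 0.42. In clutch C the changes of angptl4.L, btg3.S, mycn.S and slc4a11.S were 0.04 or less. By adjusted p the leading genes higher with DEAB were r3hdm4.L, txnip.S, gtf3c2.L (a TFIIIC subunit), noct.S (a circadian deadenylase-related gene) and esco2.S (a cohesin acetyltransferase), at 0.30 to 0.46 and an adjusted p of 0.0247 each.

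Among genes called lower that were lower in all 6 clutches, LOC108696890, an unnamed gene, stood at −1.38 (SE 0.33, adjusted p = 0.044), and xk81a1.L is given above. fbn1.S, a microfibril gene, fell by 0.90 (SE 0.22), bco2l.L, a carotenoid cleavage enzyme-like gene, by 0.88 (SE 0.22), and arhgap36.L by 0.81 (SE 0.20). jam3.S, a cell junction gene, fell by 0.80 (SE 0.18), and herpud1.L, a gene of the endoplasmic reticulum stress response, by 0.73 (SE 0.13, adjusted p = 0.025). cd99l2.S fell by 0.72 (SE 0.17). In clutch C, herpud1.L and bco2l.L were near 0, at −0.0017 and −0.073 when scaled over the 72 libraries. Among the lower genes with the smallest adjusted p were hoxd1.S, hoxd1.L, LOC108704702 (−0.71) and p4hb.L, a protein disulfide isomerase gene, at −0.23 (SE 0.04).

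Homeologs of 1 gene share a name and an ancestor, and reads may be split between near-identical copies in counting. Of 3159 pairs with both copies tested, 28 had both copies called, 16 with both lower and 12 with both higher, and none with opposite signs. They include, chosen after their values were seen, cyp26a1, dhrs3, hoxd1, myf5 and fzd10 with herpud1 (−0.73 and −0.70, .L and .S), irx2 (−0.78 and −0.76) and hes6.1 (−0.69 and −0.54). Where 1 copy was called lower, the other was below 0 in 77 of 84 pairs (median −0.16), and where 1 was called higher, the other was above 0 in 85 of 92 pairs (median 0.14). Of all genes tested, 2.37% were called. How often the copies share a sign over all pairs was not counted, so whether called genes differ in this from others is not known.

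Clutches differed in the size of the change. Over the 225 genes called higher, the median within-clutch difference was 0.24, 0.14 and 0.03 in clutches A, B and C and 0.36, 0.42 and 0.38 in clutches D, E and F. Over the 235 called lower it was −0.21, −0.17 and −0.04, and −0.37, −0.44 and −0.46. These genes were selected on the mean over the clutches, so the medians describe how the clutches contribute and are not a test. In clutch C, 152 of the 225 were higher and 138 of the 235 lower. Across all genes tested, the change in one clutch correlated with that in another with r between 0.28 and 0.35 for pairs among D, E and F, and between −0.12 and −0.04 for clutch C with each of the others, over 19376 genes that are not independent replicates. Clutch A had r between 0.14 and 0.20 with D, E and F, and clutch B between 0.05 and 0.09 with A, D, E and F.

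**Figure D4:**
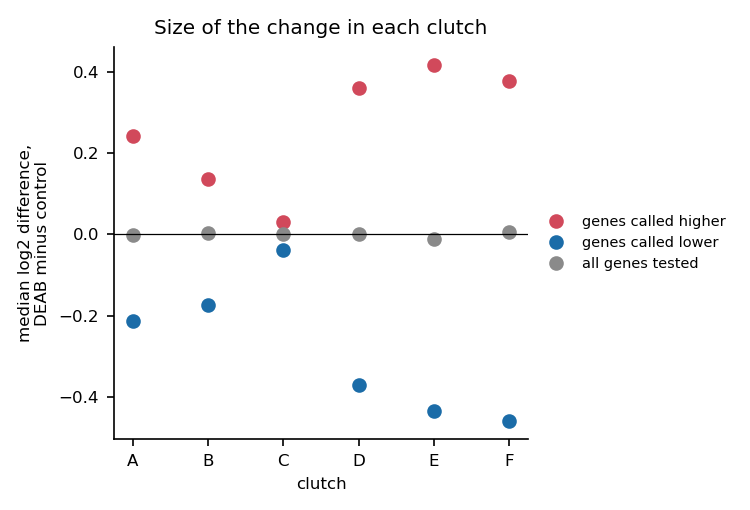
Median log2 difference of DEAB minus control in each clutch (x axis) for the 225 genes called higher (red), the 235 called lower (blue) and all 19376 genes tested (grey). The called genes are farthest from 0 in clutches D, E and F and nearest in clutch C, where the medians are 0.03 and −0.04.

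Many genes change quickly at gastrulation. Genes were classed by control libraries of later times, which are not in this comparison and whose labelled stage differed between clutches. Of 2194 genes that rose at least 2-fold and past the threshold in controls between 1.5 and 4.5 h, 81 (3.69%) were called lower with DEAB at 0 h and 2, tmem181.L and rbm24.L, higher (against 1.21% and 1.16% of all genes). Of 3147 genes that fell so, 1, LOC108701852, was called lower and 110 higher. The median difference was −0.11 for the rising class and 0.08 for the falling class, and in clutch C it was 0.07 and −0.04. The part of developmental pace in the calls was not tested.

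After the wash the differences were smaller in the called genes. In a fit of 72 libraries the called-higher genes had a median log2 difference of 0.11 at 1.5 h, 0.11 at 3 h and 0.05 at 4.5 h, and the called-lower genes of −0.12, −0.11 and −0.03. In the test of the difference itself (the DEAB effect at a later time against that at 0 h), no gene passed at 1.5, 3 or 4.5 h (0% of 22092 genes each, edgeR), with 358, 432 and 980 genes at an unadjusted p under 0.05. The same 72-library fit called 0 genes for DEAB against control at 0 h (1586 at an unadjusted p under 0.05). It could thus hardly show a change from 0 h, and no conclusion is drawn from the absence of calls. With each clutch and time as a block, which keeps DEAB and control libraries of a clutch and time paired, 0, 10 and 81 genes passed. The genes were selected at 0 h, and smaller later values are in part fixed by that choice.

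cyp26a1.S, the RA hydroxylase gene, was lower with DEAB in 6, 6, 6 and 5 of 6 clutches at 0, 1.5, 3 and 4.5 h, with log2 differences, as estimated in the fit, of −0.80, −0.50 and −0.26 at 1.5, 3 and 4.5 h. dhrs3.L was lower by 0.61, 0.56 and 0.81 at these times, in 6 of 6 clutches at each. hoxd1.S stood at −0.48, −0.32 and −0.27, and hoxd1.L at −0.41, −0.36 and −0.24. rpl29.S stood at −0.10, −0.22 and −0.01. For myf5.L the fit gave −0.06, −0.20 and −0.02 and the mean of the within-clutch differences was 0.08, −0.19 and −0.13, so its sign at 1.5 h differed between them. For hoxd1.S the change from 0 h had unadjusted p of 0.059, 0.032 and 0.025 and adjusted p of 0.987 or more. The median level of hoxd1.S increased with time in both groups: it had 1.23 log2 CPM at 0 h and 6.38 at 4.5 h with DEAB, and 3.85 and 6.80 in controls.

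**Figure D5:**
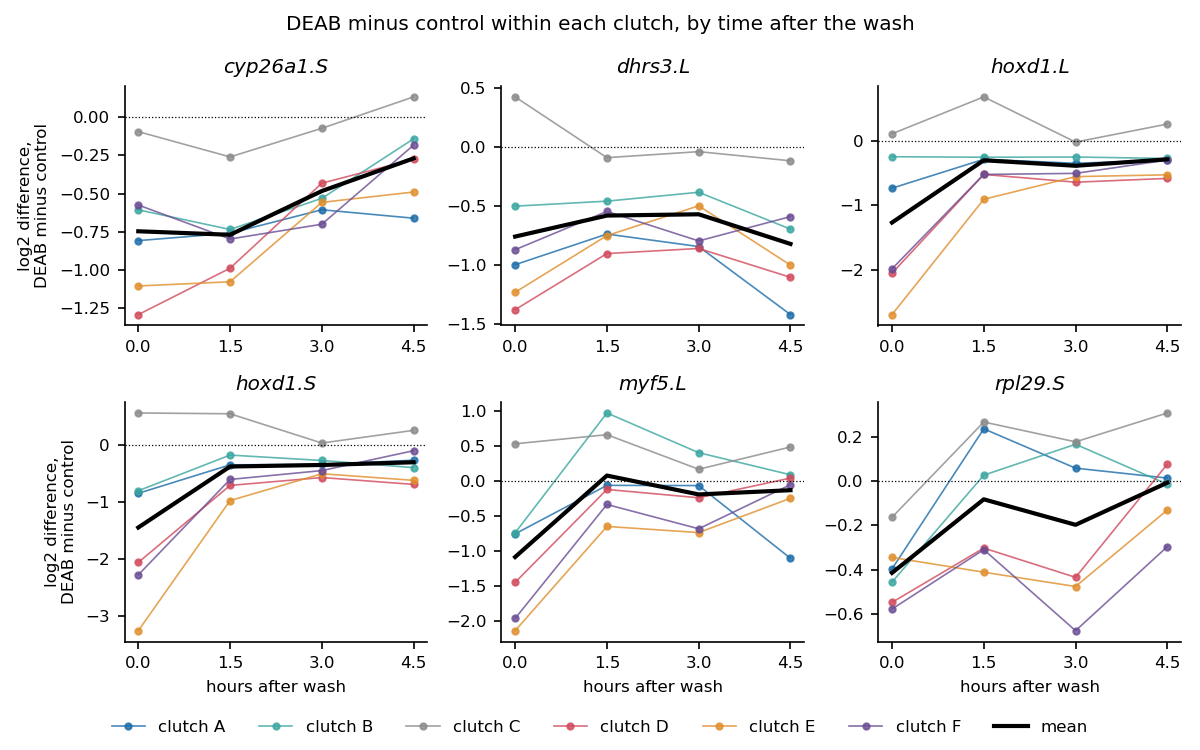
Log2 difference of DEAB minus control within each clutch (y axis) at 0, 1.5, 3 and 4.5 h after the wash (x axis) for 6 genes, with the mean over clutches in black. dhrs3.L lies below 0 at all times in clutches A, B, D, E and F, and myf5.L and rpl29.S have means between −0.20 and 0.08 after the wash.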

How the data were processed

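The deposited raw counts per gene were made by the authors by aligning RNA-seq reads with STAR to the X. laevis 9.1 genome and counting with verse. From control, RA and DEAB counts the authors computed log2 values (regularized log, ComBat for batch, removal of low genes, quantile normalization), used here for gene names and 1 alternative. No versions of these tools are given in the sources used here. Whether counting used strand is not given.

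Counts of the 18 DEAB, RA and control libraries of 0 h were scaled by TMM, filtered with filterByExpr (19376 of 31430 genes kept) and tested with edgeR 4.0.16 (quasi-likelihood, clutch as block, R 4.3.3), adjusted by Benjamini-Hochberg at 0.05. The labels give a clutch letter, and the paper states that each biological repeat came from 1 female. Deviations from group means correlated within clutches (r 0.80 to 0.88 over 6 pairs). Within-clutch differences are of log2 CPM with a prior count of 2, tested by exact sign flips. Libraries within a group differed by more than sampling noise (chi-square per degree of freedom 20.8 to 50.6 over 30 pairs), so none was a repeat. Clutches are separate females. The edgeR p values of the main fit rest on how treatment differences vary between clutches, and the RA libraries share in the estimate of that spread. The sign-flip p values use the DEAB minus control differences alone. Scripts were tested on simulated data.

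Symbols come from the log2 table, where 1635 of 3400 LOC names were replaced by RefSeq symbols of assembly 10.1, by gene ID. Members and lists were chosen with earlier results of these data known. Named genes were all tested members of the RA lists, the 10 largest called changes in each direction shared by 6 clutches, the 5 with the smallest adjusted p in each direction, and up to 4 called members (or the 2 with the smallest p) of each other list. Alternatives were DESeq2 1.42.0, another scaling, no filter, no block, 12, 24 or 72 libraries, limma 3.58.1 on the log2 values, and leaving out each clutch. The 24-library fit was chosen after seeing the data. Some items of these lists are not reported here.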

Additional observations from a re-analysis of the deposited data

Results flagged for a closer look

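Of 109 sets of 6 values examined for a sample far from the others (within-clutch differences of the 107 named genes and the total counts of both groups), 2 held one, which chance gives in about 1 in 20 sets. For rdh13.L, a retinol dehydrogenase family gene, the log2 difference of DEAB minus control was −0.53 in clutch C and the gap to the next clutch was 0.684 of the range. For rara.S, an RA receptor gene, it was −0.63 in clutch F, with a gap of 0.667 of the range. Neither gene passed the test over the 6 clutches (log2 fold change 0.17 and −0.16, edgeR adjusted p = 0.47 and 0.35).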

How the results depend on the processing

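The 460 calls became 462 with another scaling and 688 without clutch B, and were more with DESeq2 (1020), with no filter on low counts (1220) and with the 24 libraries of 0 h (1205). They were 0 with no replicate block (82 genes at an unadjusted p under 0.05), 0 with 12 libraries (3594), 0 with 72 libraries (1586 at an unadjusted p under 0.05) and 8 with limma on the deposited log2 values. Leaving out 1 clutch at a time gave 0 to 2563. The cause was not tested. Of the 460, DESeq2 called 401, the 24-library fit 453 and the fit without clutch C 457. No gene passed for the later times against 0 h, except with each clutch and time as a block, 10 at 3 h and 81 at 4.5 h.

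Each of the 58 named genes that were called kept its direction in every alternative that gave it an adjusted p. Genes that were not called changed sign as follows: cyp26c1.L with no replicate block (−0.0011) and with limma (−0.0025), cyp26c1.S with no replicate block (−0.0094), and with limma ep300.S (0.013), ep300.L (0.047) and ncoa2.L (−0.0070). Leaving out 1 clutch gave −0.091 to 0.0049 for sdr16c5.L, −0.21 to 0.30 for cyp26c1.L, −0.26 to 0.16 for cyp26c1.S, −0.27 to 0.034 for crabp2.L, −0.075 to 0.092 for rbp2.L, −0.093 to 0.052 for stra6.L, −0.44 to 0.097 for crabp2.S and −0.022 to 0.071 for ncoa2.L. The medians of the 19 lists with tested genes moved by less than 1 SD over clutches in all 14 alternatives. Within that bound they still moved: the posteriorising and hindbrain median lay between −0.45 and −0.17. That of retinoid binding and uptake lay between −0.093 and 0.052. Depth limits hoxa2.S, under 1 CPM in most DEAB and control libraries of 0 h, where few reads set the value.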

Other observations

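Other gene families, chosen after their values were seen and so given with no test, held called genes in 1 direction. Of all genes, 1.21% were called lower, 1.16% higher, and 11.2% were lower at an unadjusted p under 0.05. Of 59 genes of translocation into the endoplasmic reticulum and protein folding there, 12 were called lower (20.3%) and none higher (median −0.10), among them p4hb.L at −0.23. Of 69 translation initiation and elongation factor genes, 11 were called lower (15.9%, median −0.10), and of 53 ribosome assembly factor genes 9 (16.98%, median −0.12). Of 111 splicing factor and hnRNP genes, 13 were called lower (11.7%) and 66 were lower at an unadjusted p under 0.05 (59.5%, median −0.12). In the other direction, 8 of 45 genes of signaling attenuator families (dusp, spred, spry, rasa, rasal and socs) were called higher (17.8%) and none lower (median 0.08). The medians with ethanol over the same controls were −0.09, −0.11, −0.09, −0.14 and 0.05 for these 5 families in the same order. With RA over these controls they were −0.08, −0.08, −0.09, −0.11 and 0.06.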
